A study of Mus musculus with 18 samples.

Results

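The genes described here are 10 markers of epithelial cells and of lung epithelium, and they were chosen by name from the 35310 genes of the deposited tables, without the use of any measured level in the rule. They are Epcam, Cdh1, Cldn4, Krt7, Krt8, Krt18, Krt19, Trp63, Nkx2-1 and Sftpc. All 10 were listed for TC1 cells and for MCA205 cells, and 9 were listed for tumours, where Sftpc was not listed and is not analysed here. Epithelial cells adhere to each other through E-cadherin, claudins and EpCAM and carry a cytoskeleton of paired type I and type II keratins, whereas fibroblast-like cells rely on vimentin. Lung epithelium is specified by the transcription factor Nkx2-1, and its alveolar type 2 cells secrete surfactant proteins such as Sftpc, while Trp63 marks basal cells of skin and airway. Snail and Zeb family repressors silence Cdh1 and other epithelial genes when cells take on a mesenchymal state.

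RNA was measured in 6 groups of 3 libraries: subcutaneous TC1 tumours taken on day 8 from sgNAT10 or wild-type (WT) cells, cultured sgNAT10 or WT TC1 cells, and cultured sgNAT10 or WT MCA205 cells. The name sgNAT10 denotes a guide RNA against Nat10, an RNA cytidine acetyltransferase, and the study asked what its loss changes in tumour cells. The labels call both lines mouse fibrosarcoma, although TC1 is commonly described as a line of lung epithelial cells transformed with papillomavirus oncogenes and activated Ras. Whether the WT cells carry Cas9 or a control guide, the number of guides and clones, and the strain, age and sex of the host mice are not given in the sources used here. Whether replicates are separate cultures or animals is also not given. The p-values here set a difference between groups against the spread of libraries within groups, which may be technical. For sgNAT10 against WT within a line or tissue that spread came from its own libraries, and otherwise from all 18 libraries. Values of a group are given in the order of libraries 1, 2 and 3, as FPKM (fragments scaled to transcript length and to library size) summed over a gene's transcripts, so levels can be compared between genes.

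The libraries held between 51661298 and 78501790 estimated counts. Nat10 stood at 12.3 to 16.3 FPKM in sgNAT10 tumours against 14.8 to 16.2 in WT tumours, at 11.7 to 14.2 in sgNAT10 TC1 cells against 13.9 to 15.9 in WT TC1 cells, and at 13.2 to 13.6 in sgNAT10 MCA205 cells against 12.5 to 14.2 in WT MCA205 cells. None of these 3 differences passed edgeR's quasi-likelihood test, with adjusted p-values of 0.336, 0.161 and 0.984, and a transcript level does not show whether the protein was lost. In 3 libraries, tumour WT 1, MCA205 WT 1 and MCA205 sgNAT10 2, most of the markers described here were near 0 while the other libraries of their group were not. The summed level over the 10 genes was 2.28, 9.12 and 0.938 FPKM in those 3 libraries, against 14.4 to 169 FPKM in the other 15. Of the 9.12 FPKM in MCA205 WT 1, Sftpc made up 5.68 FPKM. Tumour WT 1 and MCA205 sgNAT10 2 were also the deepest libraries, with 78501790 and 77792641 counts.

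The promoter windows of Epcam, Krt8 and Krt18, which were low together in the 3 libraries named above, and of Cldn4 are shown. Cldn4 was at 0.272, 0.0534 and 0.0684 FPKM in tumour WT 1, MCA205 WT 1 and MCA205 sgNAT10 2, and it was also low in the other sgNAT10 MCA205 libraries. A relation of these sequences to the levels was not tested. Each runs from 250 bases before to 50 bases after an annotated start in RefSeq on GRCm38.p6, 5′ to 3′ on the gene's strand, and the windows matched 6 of the 10 members. Capitals mark CACCTG or its reverse complement CAGGTG, the E-box that Snail and Zeb factors bind.
Epcam chr17:87635729-87636028 (plus strand): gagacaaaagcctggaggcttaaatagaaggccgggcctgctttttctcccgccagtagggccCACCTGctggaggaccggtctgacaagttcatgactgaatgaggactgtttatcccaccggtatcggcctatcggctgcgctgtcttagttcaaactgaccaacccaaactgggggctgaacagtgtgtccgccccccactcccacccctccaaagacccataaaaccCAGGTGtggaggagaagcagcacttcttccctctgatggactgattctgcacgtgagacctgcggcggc
Krt8 chr15:102004293-102004592 (minus strand): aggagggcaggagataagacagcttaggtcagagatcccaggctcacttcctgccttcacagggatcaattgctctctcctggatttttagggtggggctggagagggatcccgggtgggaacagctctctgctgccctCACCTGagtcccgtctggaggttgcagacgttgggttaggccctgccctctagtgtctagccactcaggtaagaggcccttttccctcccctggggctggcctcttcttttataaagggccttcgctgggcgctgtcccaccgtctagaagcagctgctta
Krt18 chr15:102027966-102028265 (plus strand): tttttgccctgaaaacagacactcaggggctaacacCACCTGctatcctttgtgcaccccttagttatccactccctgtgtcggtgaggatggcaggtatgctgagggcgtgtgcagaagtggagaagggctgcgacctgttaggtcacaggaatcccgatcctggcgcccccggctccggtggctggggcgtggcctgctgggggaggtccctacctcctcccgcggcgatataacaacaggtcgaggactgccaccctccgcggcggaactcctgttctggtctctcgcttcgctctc
Cldn4 chr5:134946885-134947184 (minus strand): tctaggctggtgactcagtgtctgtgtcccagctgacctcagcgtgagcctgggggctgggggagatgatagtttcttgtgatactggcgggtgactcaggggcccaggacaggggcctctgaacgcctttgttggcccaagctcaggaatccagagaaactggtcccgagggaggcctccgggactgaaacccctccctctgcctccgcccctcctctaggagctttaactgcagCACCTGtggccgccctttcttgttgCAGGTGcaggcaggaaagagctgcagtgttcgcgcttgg
The E-box was present in all 6 matched windows, with 2 matches each in Epcam and Cldn4 and 1 match each in Krt8, Krt18, Krt7 and Nkx2-1. Of all 32851 windows, 20.2% held it. The letters TATAAA, on either strand, were found in the window of Krt8 alone among the 6, against 13.6% of all windows. The letters GGGCGG, on either strand, were found in those of Epcam, Cldn4, Krt7 and Nkx2-1, against 35.7% of all windows. These motifs can share at most an end base with the E-box, and a match describes sequence, not binding. The Epcam window covers the start at position 87635979 of chromosome 17 and not the start at 87636682, from which most of the Epcam level was assigned.

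Among genes for repressors that recognise the E-box, Snai1 was expressed in every group. Levels of Zeb1 and Zeb2, and of Snai2 in tumours, are not given here. Snai1 stood at 17.3 to 22.4 FPKM in sgNAT10 tumours and 11.3 to 14.6 in WT tumours, at 19.7 to 21.2 in sgNAT10 TC1 cells and 15.8 to 18.9 in WT TC1 cells, and at 13 to 14.7 in sgNAT10 MCA205 cells and 10.4 to 12.4 in WT MCA205 cells. By edgeR, Snai1 was called higher with sgNAT10 in tumours. In MCA205 cells it was not called (log2 0.25, SE 0.0845, adjusted p = 0.0523). Snai2 was at 3.84, 3.67 and 3.7 FPKM in sgNAT10 TC1 cells, against 19.9, 20 and 20.3 FPKM in WT TC1 cells. The groups did not overlap, and Snai2 fell by 2.47 on the log2 scale (SE 0.0745, adjusted p = 7.62e-06). In MCA205 cells Snai2 moved the other way, with 11.4, 11.6 and 11 FPKM in sgNAT10 cells against 7.36, 6.63 and 5.2 FPKM in WT cells, and the log2 difference was 0.83 (SE 0.126, adjusted p = 0.00201). The sgNAT10 effect on Snai2 in TC1 cells was lower than that in MCA205 cells by an interaction test (log2 -3.24, SE 0.178, adjusted p = 8.21e-09).

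Epcam encodes a homophilic adhesion protein of simple epithelia and lies at chr17:87635979-87651129 on the plus strand of mm10. It was at 1.95, 1.28 and 2.37 FPKM in sgNAT10 tumours, against 0.044, 7.89 and 7.77 FPKM in WT tumours. In TC1 cells it was at 15.2, 10.1 and 8.36 FPKM with sgNAT10, against 21.8, 29.4 and 6.12 FPKM in WT. In MCA205 cells it was at 6.21, 0 and 6.62 FPKM with sgNAT10, against 0.303, 15.7 and 7.03 FPKM in WT. Epcam counts thus stood in libraries labelled as cultured cells of both lines, and whether the RNA came from those cells was not tested. Within MCA205 libraries its levels ran from 0 in sgNAT10 2 to 15.7 FPKM in WT 2, so the genotype groups overlapped. Group means were 1.87 ± 0.549 FPKM in sgNAT10 tumours, 5.23 ± 4.5 in WT tumours, 11.2 ± 3.57 in sgNAT10 TC1 cells, 19.1 ± 11.9 in WT TC1 cells, 4.28 ± 3.71 in sgNAT10 MCA205 cells and 7.69 ± 7.74 in WT MCA205 cells (SD, n = 3 each). WT TC1 cells had the highest mean, followed by sgNAT10 TC1 cells, WT MCA205 cells, WT tumours, sgNAT10 MCA205 cells and sgNAT10 tumours, and every pair of neighbours in that order overlapped. Of the 5 Epcam transcripts, ENSMUST00000234623 held nearly all of the level, except in MCA205 WT 1, tumour WT 1 and tumour sgNAT10 2, where ENSMUST00000053577 held all of it (0.303, 0.044 and 1.28 FPKM).

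Cdh1 encodes E-cadherin, the calcium-dependent adhesion protein of adherens junctions, and lies at chr8:106603351-106670246 on the plus strand. It was at 3.77, 1.51 and 3.08 FPKM in sgNAT10 tumours, against 1.25, 2.42 and 3.59 FPKM in WT tumours. Its level in TC1 cells was 3.43, 2.81 and 2.39 FPKM with sgNAT10, against 4.96, 6.74 and 1.61 FPKM in WT. Its level in MCA205 cells was 1.72, 0.0305 and 1.84 FPKM with sgNAT10, against 0.209, 4.52 and 2.2 FPKM in WT. The groups overlapped in each of these pairs. Unlike Epcam, Cdh1 stayed above 1 FPKM in tumour WT 1, and it was at or above 1 FPKM in 16 of 18 libraries.

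Cldn4 encodes claudin-4, a tight-junction protein, in a single annotated transcript at chr5:134945119-134946934 on the minus strand. It was at 0.692, 0.107 and 1.03 FPKM in sgNAT10 tumours, against 0.272, 1.88 and 1.16 FPKM in WT tumours. TC1 cells held 1.49, 1.28 and 1.47 FPKM with sgNAT10, against 1.14, 1.97 and 0.808 FPKM in WT. MCA205 cells held 0.0366, 0.0684 and 0.0859 FPKM with sgNAT10 (4, 11 and 10 counts), against 0.0534, 1.56 and 0.494 FPKM in WT (7, 192 and 53 counts). All 3 sgNAT10 MCA205 libraries were low, whereas their Epcam levels ran from 0 to 6.62 FPKM. WT MCA205 1 fell inside the range of the sgNAT10 libraries, so those groups overlapped, while the sgNAT10 TC1 and sgNAT10 MCA205 libraries did not.

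Krt8 and Krt18 encode the keratin pair of simple epithelia, and the genes lie at chr15:101996698-102004482 on the minus strand and chr15:102028180-102032027 on the plus strand, 23.7 kb apart. Krt8 had the highest level of the 10 genes. It was at 6.03, 5.36 and 4.01 FPKM in sgNAT10 tumours, against 0.285, 18.6 and 16.9 FPKM in WT tumours. Among TC1 cells the level was 39.2, 26.7 and 23.6 FPKM with sgNAT10, against 55.8, 73.8 and 15.8 FPKM in WT. Among MCA205 cells the level was 16.5, 0.464 and 17 FPKM with sgNAT10, against 1.11, 47.1 and 18.1 FPKM in WT. The genotype groups overlapped in all 3 settings, and WT TC1 2 was the highest library of all. Krt8 averaged 5.14 ± 1.03 FPKM in sgNAT10 tumours, 11.9 ± 10.1 in WT tumours, 29.8 ± 8.29 in sgNAT10 TC1 cells, 48.5 ± 29.7 in WT TC1 cells, 11.3 ± 9.41 in sgNAT10 MCA205 cells and 22.1 ± 23.2 in WT MCA205 cells (SD, n = 3 each). Neighbouring groups in the order of these means overlapped, as they did for Epcam.

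Krt18, the type I partner, was at 2.7, 2.14 and 3.34 FPKM in sgNAT10 tumours, against 0.0375, 6.25 and 5.74 FPKM in WT tumours. TC1 libraries had 9.99, 6.92 and 5.45 FPKM with sgNAT10, against 9.25, 12.2 and 4.24 FPKM in WT. MCA205 libraries had 1.65, 0 and 2.09 FPKM with sgNAT10, against 0.19, 5.96 and 2.79 FPKM in WT. Its lowest and highest libraries were close to those of Krt8, and genotype groups overlapped throughout. Krt18 over Epcam was not constant between settings: the ratio was 0.738 to 1.67 in the 5 tumour libraries with Epcam of at least 1 FPKM, 0.414 to 0.692 in the 6 TC1 libraries and 0.266 to 0.397 in 4 MCA205 libraries.

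Krt19 encodes a type I keratin of ductal and intestinal epithelia at chr11:100140810-100148665 on the minus strand. It was at 4.16, 3.83 and 2.86 FPKM in sgNAT10 tumours, against 0.191, 15.3 and 14.2 FPKM in WT tumours. In cultured TC1 cells it was at 19.1, 12.1 and 10.3 FPKM with sgNAT10, against 31, 44.2 and 7.22 FPKM in WT. In cultured MCA205 cells it was at 13.8, 0.0291 and 13.7 FPKM with sgNAT10, against 1.07, 28.6 and 15.3 FPKM in WT. As for Krt8, the 3 low libraries named above were lowest, and the genotype groups overlapped.

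Krt7, a type II keratin of ducts and airways at chr15:101411043-101430313 on the plus strand, was far lower, with a highest level of 1.58 FPKM over the 18 libraries. It was at 0.255, 0.0974 and 0.433 FPKM in sgNAT10 tumours, against 0.203, 1.58 and 1.11 FPKM in WT tumours. Its TC1 values were 0.575, 0.286 and 0.447 FPKM with sgNAT10, against 0.712, 0.695 and 0.197 FPKM in WT. Its MCA205 values were 0.454, 0.219 and 0.756 FPKM with sgNAT10, against 0.475, 1.09 and 0.905 FPKM in WT. These groups overlapped, and part of the level came from transcripts annotated as retained intron or processed transcript. The coding transcript ENSMUST00000068904 was at 0 in tumour WT 1, TC1 sgNAT10 2, TC1 WT 3 and MCA205 sgNAT10 2.

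**Figure D1:**
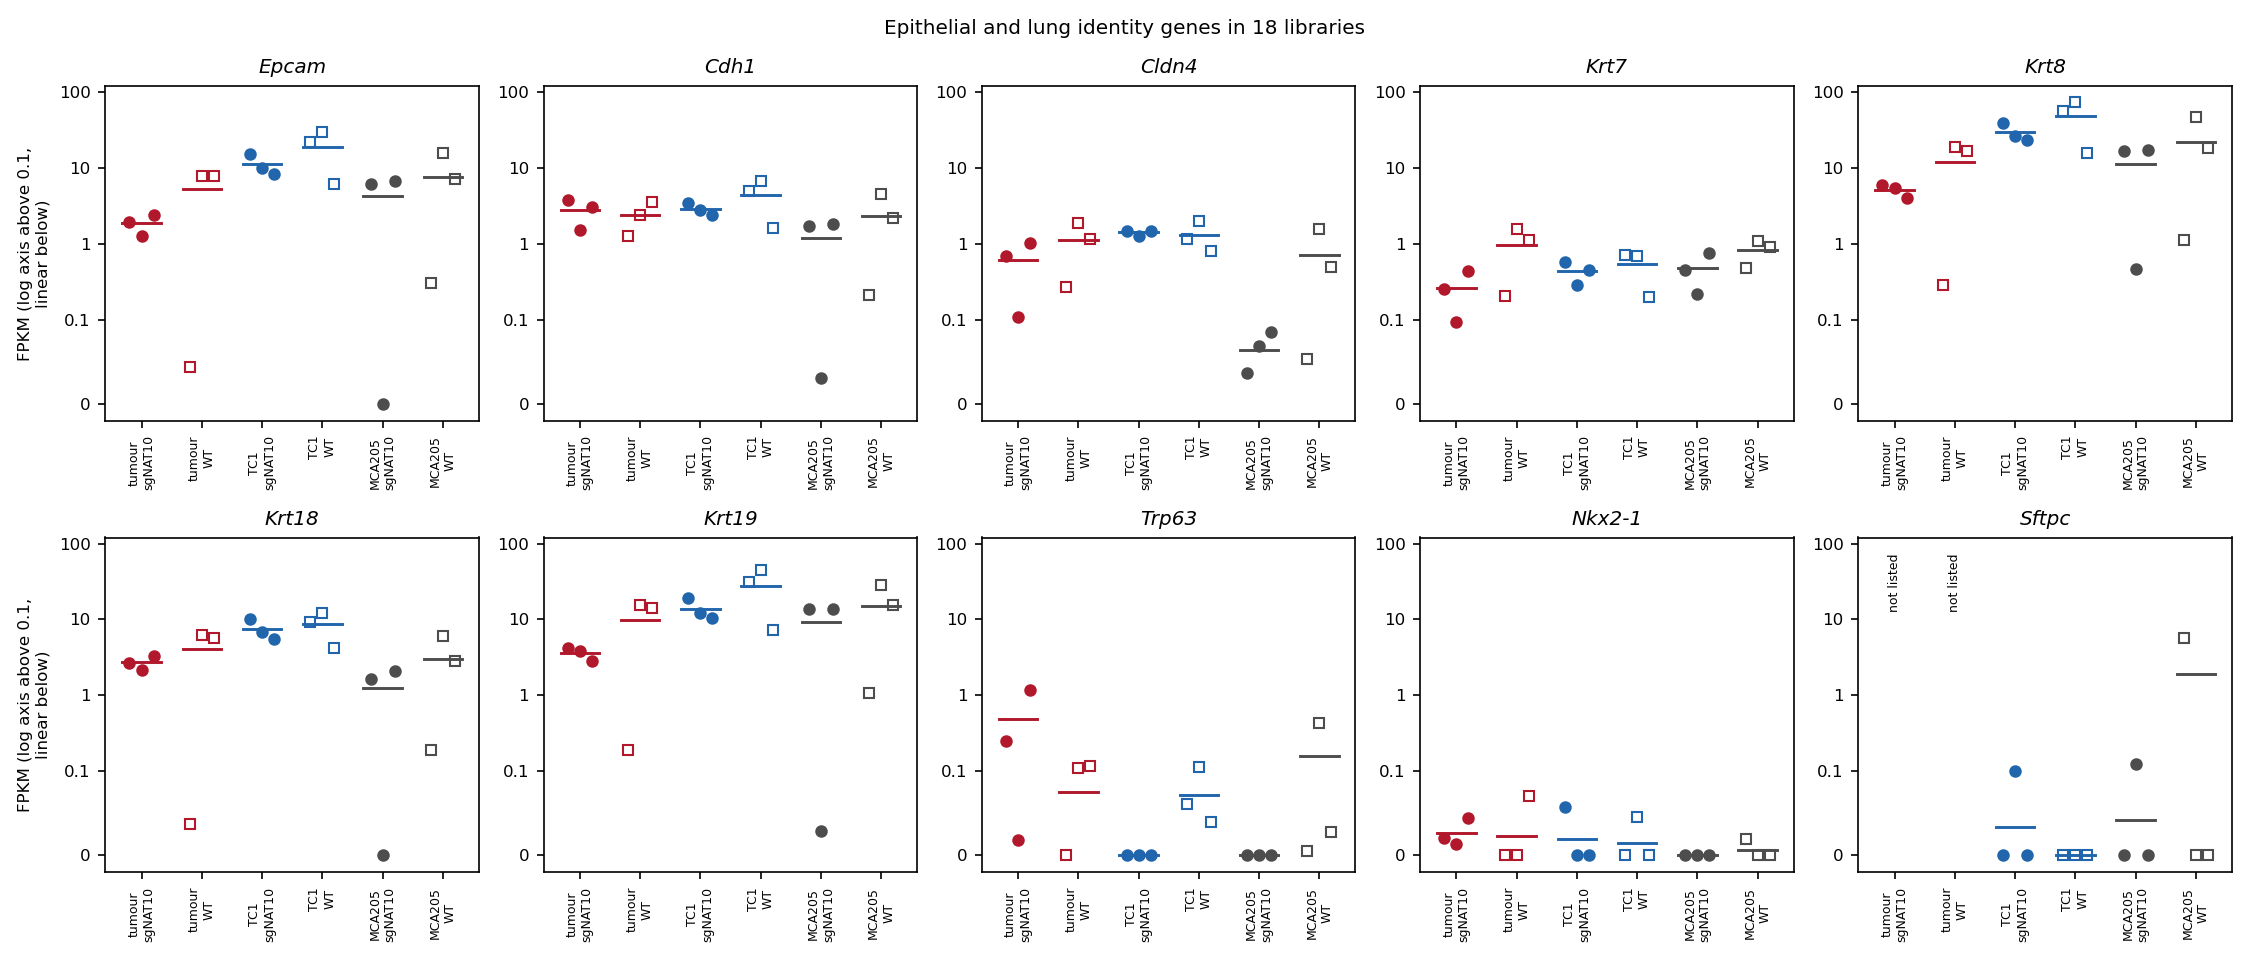
FPKM of the 10 genes in each library (points; filled circles, sgNAT10; open squares, WT), with horizontal lines for group means; the vertical axis is logarithmic above 0.1 FPKM and linear below. Epcam, Krt8, Krt18 and Krt19 are low together in tumour WT 1, MCA205 sgNAT10 2 and MCA205 WT 1, whereas Cldn4 is low in all 3 sgNAT10 MCA205 libraries.

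Trp63 encodes p63, the transcription factor of basal and stratified epithelium, at chr16:25683763-25892102 on the plus strand. It was at 0.247, 0.0187 and 1.18 FPKM in sgNAT10 tumours (69, 5 and 373 counts), against 0, 0.109 and 0.117 FPKM in WT tumours (0, 38 and 44 counts). In TC1 cells no count was assigned in the 3 sgNAT10 libraries, against 0.0611, 0.113 and 0.0392 FPKM in WT (22, 32 and 14 counts). In MCA205 cells no count was assigned in the 3 sgNAT10 libraries, against 0.0057, 0.436 and 0.028 FPKM in WT (2, 130 and 4 counts). Trp63 was at 0 in all 6 sgNAT10 cell libraries and above 0 in all 6 WT cell libraries, at levels of few counts outside WT MCA205 2. Over a library at 0 in these data, 3 counts would correspond to 0.0196 to 0.029 FPKM of the shortest coding transcript, a limit that covers counting error only.

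The Trp63 level was divided by annotated start. Transcripts from the internal start at position 25801916 held 0.223 and 1.17 FPKM in tumour sgNAT10 1 and 3, 0.113 FPKM in TC1 WT 2 and 0.436 FPKM in MCA205 WT 2. Transcripts from the upstream start at 25683765 held 0.0235, 0.0187 and 0.0134 FPKM in the sgNAT10 tumours, 0.109 and 0.117 FPKM in WT tumours 2 and 3, and 0.0611 and 0.0392 FPKM in WT TC1 1 and 3. The internal start gives the form without the transactivation domain, which is the main form in skin basal cells. Krt14, the basal keratin of stratified epithelium, was at 13.3, 0.504 and 126 FPKM in sgNAT10 tumours, against 1.41, 5.77 and 3.41 FPKM in WT tumours, and it was at 20.4 FPKM in MCA205 WT 2. The summed level of 10 epidermis markers was 11.9, 3.13 and 130 FPKM in sgNAT10 tumours, against 4.7, 4.54 and 4.14 FPKM in WT tumours. The libraries with the highest Trp63, tumour sgNAT10 3 and MCA205 WT 2, were also the highest in this sum, and its part in the Trp63 values was not tested.

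**Figure D2:**
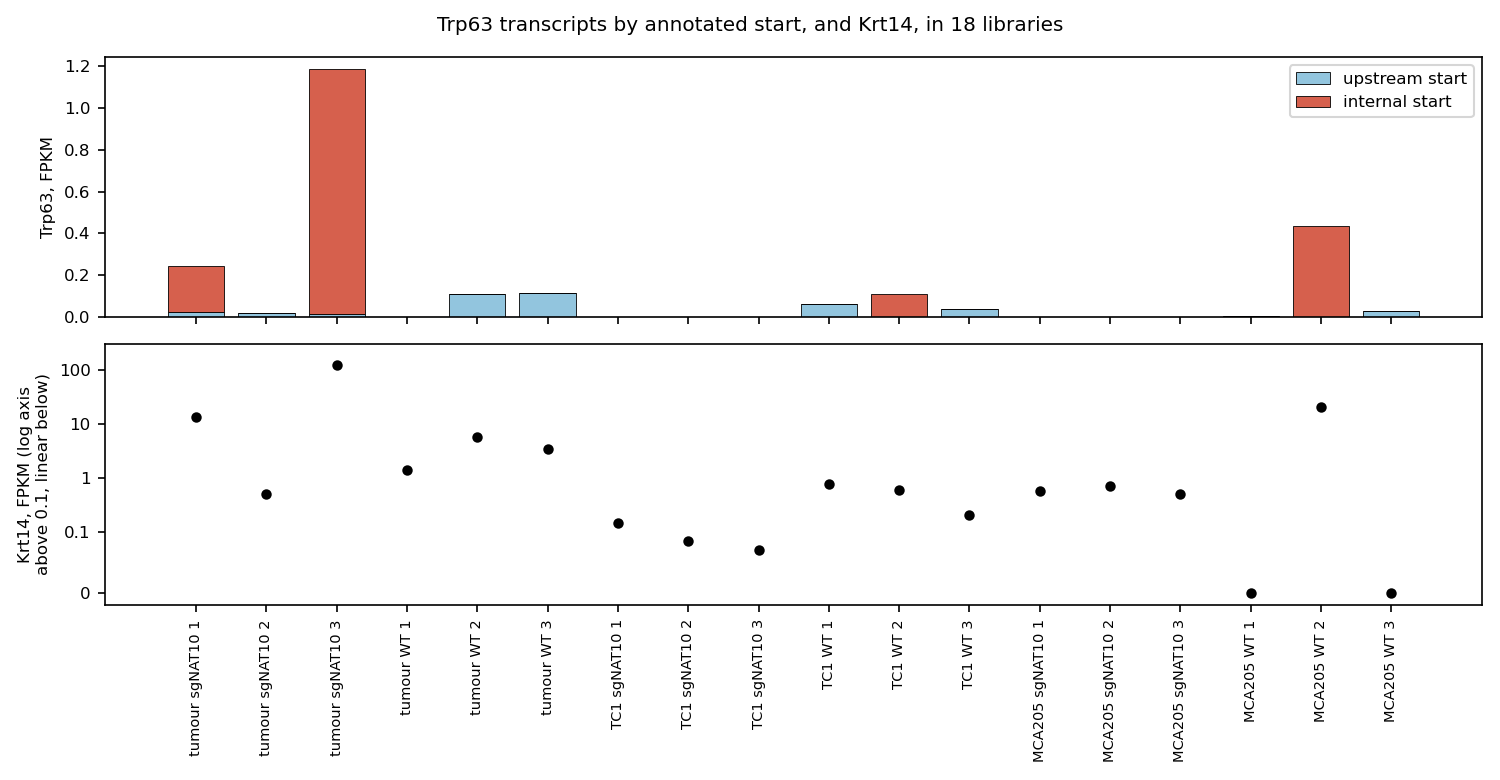
Upper panel, Trp63 level (FPKM) by library, divided into transcripts from the upstream and the internal annotated start; lower panel, Krt14 level (FPKM, logarithmic above 0.1). The tall internal-start bar of tumour sgNAT10 3 (1.17 FPKM) stands over the highest Krt14 value (126 FPKM), and sgNAT10 cell libraries have no Trp63 bar.

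The lung identity genes were at or close to 0. Nkx2-1, at chr12:56531958-56536908 on the minus strand, was at 0.0206, 0.0133 and 0.0447 FPKM in sgNAT10 tumours, against 0, 0 and 0.0703 FPKM in WT tumours. TC1 levels were 0.0573, 0 and 0 FPKM with sgNAT10, against 0, 0.0451 and 0 FPKM in WT, and in MCA205 cells it was at 0 in all sgNAT10 libraries, against 0.0195, 0 and 0 FPKM in WT. No library held more than 11 counts of it and 11 of 18 held none, which allows at most 0.0229 FPKM in each of those. Sftpc, at chr14:70520949-70524081 on the minus strand, was at 0, 0.101 and 0 FPKM in sgNAT10 TC1 cells and at 0 in all 3 WT TC1 libraries, where 3 counts would correspond to at most 0.0648 FPKM. MCA205 levels were 0, 0.126 and 0 FPKM with sgNAT10, against 5.68, 0 and 0 FPKM in WT.

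The Sftpc value of WT MCA205 1 (292 counts) stood apart from all others. The same library held 43 FPKM of Scgb1a1, the secretoglobin of airway club cells, which was at most 0.25 FPKM elsewhere. Scgb1a1 was the gene most like Sftpc over 18 libraries by Pearson r of log2(FPKM + 1), a likeness set by that 1 library. Nkx2-1 in the same library was at 0.0195 FPKM (4 counts). Neither Nkx2-1 nor Sftpc passed the expression filter, and no test was made on them.

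TC1 cells against MCA205 cells address whether a line described as lung epithelial carries more of these genes than a fibrosarcoma line. In WT cells, 0 of 8 members tested differed at an adjusted p under 0.05, by edgeR's quasi-likelihood test with Benjamini-Hochberg adjustment over all genes. Of 21876 genes 35.4% did (18.1% higher and 17.3% lower). An unadjusted p under 0.05 was reached by 0 members and by 9543 genes. The log2 difference was 1.25 for Epcam (SE 1.42, adjusted p = 0.546), 1.07 for Krt8 (SE 1.23, adjusted p = 0.549), 1.46 for Krt18 (SE 1.35, adjusted p = 0.445) and 0.88 for Cdh1 (SE 0.999, adjusted p = 0.548). The wide errors leave differences of several fold in either direction undecided, and the member median of 0.86 stood beside an all-gene median of 0.03. DESeq2, limma and each 1-library-out fit also called 0. Without MCA205 WT 1, the differences were 0.69 for Epcam (adjusted p = 0.778), 0.51 for Krt8 (adjusted p = 0.807), 0.91 for Krt18 (adjusted p = 0.676) and 0.33 for Cdh1 (adjusted p = 0.843).

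In sgNAT10 cells, 1 of 8 members was higher in TC1 than in MCA205 cells, beside 46.5% of genes called in either direction (23.7% higher and 22.8% lower). That member was Cldn4, with 1.41 ± 0.115 FPKM in sgNAT10 TC1 cells and 0.0636 ± 0.025 FPKM in sgNAT10 MCA205 cells (SD, n = 3 each), a log2 difference of 4.4 (SE 1.05, adjusted p = 0.00304). Krt18 differed by 2.55 (SE 1.41, adjusted p = 0.154), Epcam by 1.35 (SE 1.43, adjusted p = 0.471) and Krt19 by 0.55 (SE 1.34, adjusted p = 0.77). Krt8 and Cdh1 differed by 1.36 (SE 1.24, adjusted p = 0.396) and 1.24 (SE 1.01, adjusted p = 0.343), and Trp63 was at 0 in both groups. The Cldn4 call held in each 1-library-out fit, but those fits kept the genes of the main fit. Cldn4 had 4, 11 and 10 counts in sgNAT10 MCA205 cells, against 166, 149 and 172 in sgNAT10 TC1 cells. It passed the filter through groups in which it was higher, so its call describes these counts alone. Without MCA205 sgNAT10 2, Krt18 differed by 1.94 (adjusted p = 0.254), Epcam by 0.75 (adjusted p = 0.683), Krt8 by 0.78 (adjusted p = 0.652), Cdh1 by 0.64 (adjusted p = 0.582) and Krt19 by -0.05 (adjusted p = 0.988). Each table holds 1 line or tissue, so line and table cannot be told apart in these comparisons or in those of tumours with cells.

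Of 19 other epithelial junction genes, 3 were higher and 0 lower in WT TC1 than in WT MCA205 cells, and 4 were higher and 2 lower in sgNAT10 cells, beside 18.1% and 23.7% of all genes higher. F11r, which encodes junctional adhesion molecule A, was at 17.3, 23.9 and 24 FPKM in sgNAT10 TC1 cells, against 0.833, 0 and 0.79 FPKM in sgNAT10 MCA205 cells, a log2 difference of 5.29 (SE 1.06, adjusted p = 0.000801), and in WT cells F11r differed by 3.84 (SE 0.979, adjusted p = 0.00644). Cxadr, an adhesion protein of tight junctions that serves as a virus receptor, was higher in WT TC1 cells by 1.17 (SE 0.231, adjusted p = 0.00103). Of 12 epithelial transcription and splicing factors, 11 were tested and 0 differed between the WT lines, with 1 at an unadjusted p under 0.05 by edgeR. Grhl2 and Esrp1, which keep cells epithelial, stayed at or under 1.17 and 1.65 FPKM in the cell libraries. Lung and foregut transcription factors, 11 genes, gave 2 higher and 5 lower in WT TC1 than in WT MCA205 cells. In sgNAT10 cells 1 was higher and 7 lower. Over all genes 17.3% and 22.8% were lower in these 2 comparisons.

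Mesenchymal genes were high in both lines. Their summed level over 19 genes was 1472 to 1650 FPKM in sgNAT10 TC1 cells, 2024 to 2461 FPKM in WT TC1 cells, 1331 to 1351 FPKM in sgNAT10 MCA205 cells and 1135 to 1146 FPKM in WT MCA205 cells. Vim, which encodes vimentin, was at 1072, 1343 and 1143 FPKM in WT TC1 cells, against 448, 431 and 447 FPKM in WT MCA205 cells (log2 1.4, SE 0.117, adjusted p = 4.79e-07). Between the WT lines 13 of 19 mesenchymal genes were higher and 1 lower in TC1 cells, beside 18.1% and 17.3% of all genes. The sgNAT10 lines did not repeat this, with 5 higher and 7 lower, beside 23.7% and 22.8% of all genes. The median log2 difference of the list was 0.73 between the WT lines and -0.12 between the sgNAT10 lines. Vim stood at 45.7 to 187 times the FPKM of Epcam in the 6 TC1 libraries and at 27.4 to 84.2 times in 4 MCA205 libraries, ranges that overlap, while in TC1 cells Nkx2-1 and Sftpc, the defining markers of lung epithelium, were at or near 0.

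Tumours address what the markers do once TC1 cells grow under the skin among host cells. In these bulk samples, fewer cells of a type and less RNA per cell cannot be told apart. In sgNAT10 tumours against sgNAT10 TC1 cells, Epcam, Krt8, Krt18, Krt19 and Cldn4 were lower in every tumour library than in every cell library, but 0 of them passed the test. The share of all genes separated in this way was not counted, so the separation is not read as particular to the members. Of 8 members tested 1 was called, Trp63, beside 55.4% of genes called in either direction (28.8% higher and 26.5% lower). Trp63 had 447 counts over the 3 sgNAT10 tumours and 0 over the 3 sgNAT10 cell libraries, at least 140-fold higher with a floor of 3 counts over the group (adjusted p = 0.0128), and 373 of those counts came from tumour sgNAT10 3. Trp63 is at 0 in every sgNAT10 TC1 library and passed the filter only through groups in which it was present, so its call describes the counts and supports nothing further. Without tumours WT 1 and sgNAT10 3, the Trp63 call held (adjusted p = 0.0208), and in limma without a filter it was lost (adjusted p = 0.0715). Krt8 differed by -2.55 (SE 1.29, adjusted p = 0.108), Epcam by -2.53 (SE 1.49, adjusted p = 0.165) and Krt19 by -1.95 (SE 1.39, adjusted p = 0.25). A fit over the 6 libraries of those groups alone called 4 members lower, with Epcam at -2.52 (adjusted p = 0.000194), Krt8 at -2.55 (adjusted p = 7.05e-05), Krt19 at -1.94 (adjusted p = 0.000493) and Krt18 at -1.45 (adjusted p = 0.00296), and Trp63 was not tested there. The share of all genes called in that fit is not given here, so its count is not read as particular to the members. Cdh1 differed by -0.05 (SE 0.993, adjusted p = 0.972), and its groups overlapped. The member median was -1.33, beside an all-gene median of 0.03.

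In WT tumours against WT TC1 cells, 0 of 8 members were called, beside 48.8% of 21876 genes (24.3% higher and 24.5% lower). An unadjusted p under 0.05 by edgeR was reached by 0 members and by 12056 genes. DESeq2 and limma also called 0 members. Krt8 differed by -1.98 (SE 1.26, adjusted p = 0.21), Epcam by -1.83 (SE 1.44, adjusted p = 0.314) and Krt7 by 0.83 (SE 0.937, adjusted p = 0.492). Without tumour WT 1, Krt8 differed by -1.4 (adjusted p = 0.364), Epcam by -1.25 (adjusted p = 0.488) and Krt7 by 1.3 (adjusted p = 0.285). The member median was -0.93, beside an all-gene median of -0.02. Leukocyte markers, 10 genes, summed to 830 to 985 FPKM in sgNAT10 tumours and 973 to 1265 FPKM in WT tumours, against 88.2 to 165 FPKM in sgNAT10 TC1 cells and 46 to 61 FPKM in WT TC1 cells. In both genotypes 9 of the 10 were higher in tumours and 0 lower, and their part in the member levels was not tested.

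Of 19 junction genes outside the member list, 5 were lower and 0 higher in WT tumours than in WT TC1 cells, where 24.5% of all genes were lower. In sgNAT10 tumours 4 were lower and 1 higher than in sgNAT10 TC1 cells, where 26.5% of all genes were lower, so both counts are near the share over all genes. Pard6b, a cell polarity protein, was at 1.46, 1.87 and 1.74 FPKM in sgNAT10 tumours, against 7.08, 6.46 and 6.88 FPKM in sgNAT10 TC1 cells, and fell by 2.02 on the log2 scale (SE 0.156, adjusted p = 5.01e-08). Klf5, a transcription factor of intestinal and lung epithelium, was at 1.08, 1.04 and 2.16 FPKM in sgNAT10 tumours, against 8.53, 8.85 and 8.58 FPKM in sgNAT10 TC1 cells, and fell by 2.6 (SE 0.285, adjusted p = 1.94e-06). Among keratins outside the member list, 6 of 10 other keratins were higher and 1 lower in sgNAT10 tumours than in sgNAT10 TC1 cells, with Krt14 at 13.3, 0.504 and 126 FPKM in sgNAT10 tumours against 0.148, 0.0854 and 0.0712 FPKM in sgNAT10 TC1 cells (log2 8.78, SE 2.41, adjusted p = 0.0062). Of the 9 epidermis markers tested, 7 were higher and 0 lower. Over all genes 28.8% were higher, the share to set beside both lists. Tumour sgNAT10 3 led both, with sums of 403 FPKM for the other keratins and 130 FPKM for the epidermis markers. In each sgNAT10 TC1 library 5 or 6 of the 10 epidermis markers had no count. Genes without counts there passed the filter only through other groups, so these calls describe the counts and support nothing further.

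**Figure D3:**
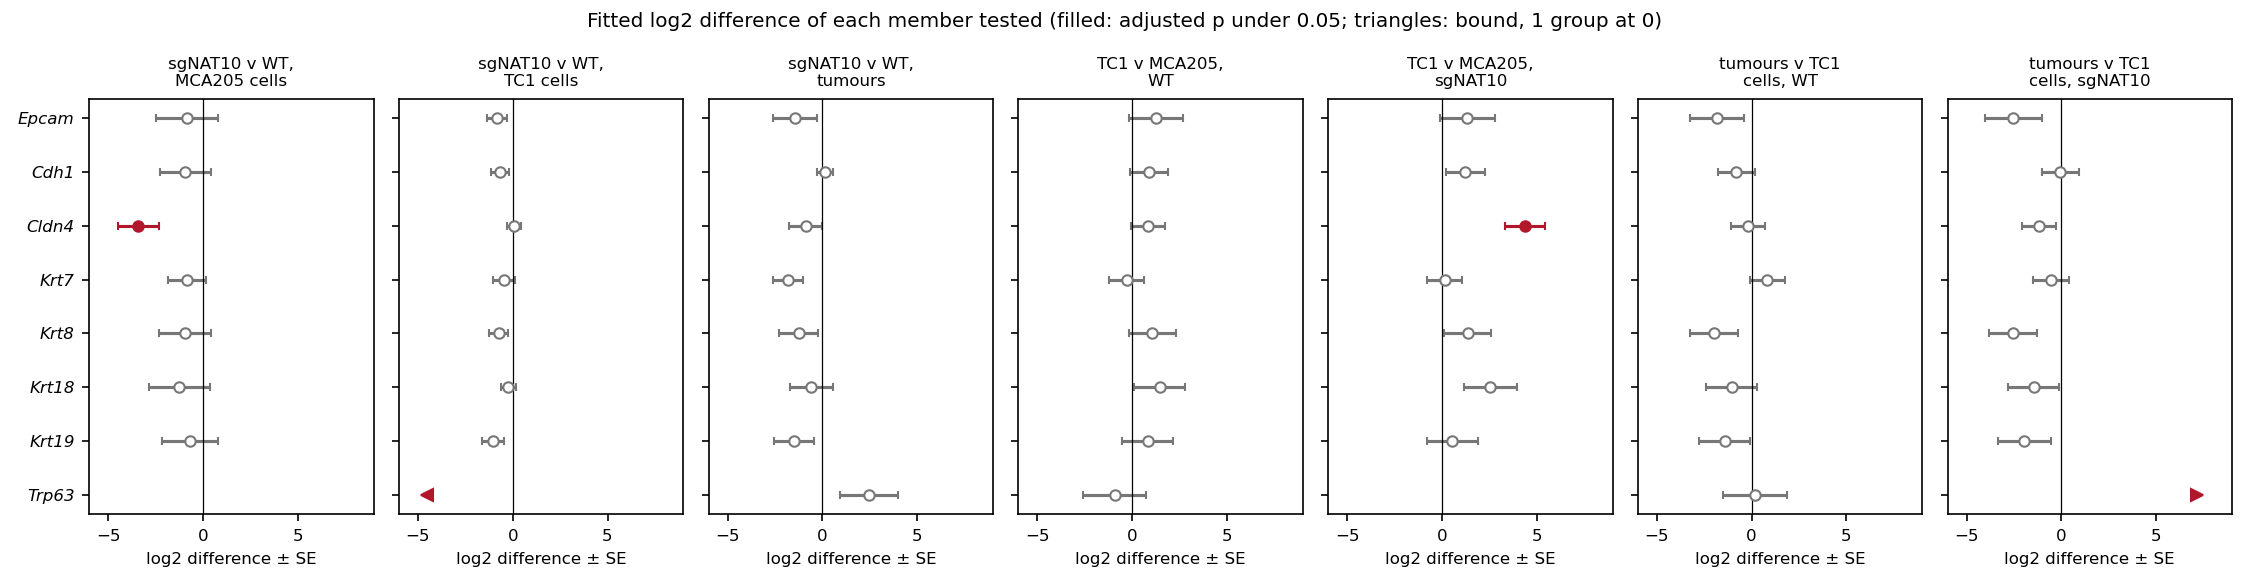
Log2 difference with its standard error (horizontal axis) of each member tested in 7 comparisons, by edgeR; filled points passed an adjusted p of 0.05, and triangles mark the lower bound of the change where 1 group had no count. Cldn4 and Trp63 are the only members filled, with Cldn4 at -3.41 between MCA205 genotypes and at 4.4 between the sgNAT10 lines.

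The guide against Nat10 was compared with WT within each table, and these comparisons share groups with those above. In TC1 cells, 1 of 8 members was called, as lower, beside 37.9% of genes called in either direction (15.9% higher and 22% lower). It was Trp63, with 0 counts over 3 sgNAT10 libraries and 68 over 3 WT libraries, at least 22.6-fold lower with a floor of 3 counts over the group (adjusted p = 0.00519). Trp63 passed the filter here only through the WT libraries, so its call describes these few counts and supports nothing further. Epcam fell short of the test with -0.81 (SE 0.53, adjusted p = 0.282), as did Krt8 with -0.74 (SE 0.513, adjusted p = 0.309), Krt19 with -1.03 (SE 0.595, adjusted p = 0.226) and Cdh1 with -0.66 (SE 0.47, adjusted p = 0.321). TC1 WT 3 was the lowest WT library for these 4 genes, and without it all 4 passed as lower: Epcam at -1.14 (adjusted p = 0.0225), Krt8 at -1.07 (adjusted p = 0.0189), Krt19 at -1.39 (adjusted p = 0.0143) and Cdh1 at -0.97 (adjusted p = 0.0155). That library is singled out by its low levels of these genes, so these 4 calls restate those levels and support nothing further. The share of all genes called without it is not given here. Cldn4 differed by 0.07 (SE 0.348, adjusted p = 0.901). The member median was -0.7, beside an all-gene median of -0.08. The summed level of 16 intestinal markers was also lowest among WT TC1 libraries in WT 3, at 224 FPKM against 508 and 695 FPKM in WT 1 and 2, and its part in these values was not tested. The Trp63 call was lost with the spread taken over all 18 libraries (adjusted p = 0.0861) and in limma without a filter (adjusted p = 0.0605).

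Around the members in TC1 cells, 3 of 18 junction genes tested were lower and 1 higher with sgNAT10, beside 22% of all genes lower. Cxadr was at 10.1, 10.1 and 10.4 FPKM in sgNAT10 cells, against 23.4, 23.5 and 25.3 FPKM in WT cells, and fell by 1.32 (SE 0.0595, adjusted p = 2.3e-05). Cgn, which encodes cingulin of tight junctions, was at 0.83, 0.879 and 0.846 FPKM in sgNAT10 cells, against 2.87, 3.29 and 2.43 FPKM in WT cells, and fell by 1.8 (SE 0.151, adjusted p = 0.000219). Of 11 lung and foregut transcription factors, 3 were lower and 0 higher, a share near the 22% of all genes. Sox2, a factor of conducting airway and foregut progenitors, was at 0.0449, 0.153 and 0.0763 FPKM in sgNAT10 cells, against 7.3, 9.99 and 9.31 FPKM in WT cells, and fell by 6.55 (SE 0.398, adjusted p = 6.36e-05). Irx1, a homeobox factor, fell by 4.28 (SE 0.32, adjusted p = 0.000142), and Foxp4, a forkhead factor, by 0.54 (SE 0.0671, adjusted p = 0.00102). Of 9 epithelial transcription and splicing factors tested, 1 was lower and 0 higher, and it was Grhl1, a factor of epithelial barrier genes, which fell by 1.98 (SE 0.249, adjusted p = 0.00109). Mesenchymal genes were lower as well, with 13 of 19 called lower and 0 higher.

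In MCA205 cells, 1 of 7 members tested was called, beside 40.6% of genes called in either direction (21.2% higher and 19.4% lower). It was Cldn4, with 0.0636 ± 0.025 FPKM in sgNAT10 cells and 0.701 ± 0.772 FPKM in WT cells (SD, n = 3 each), which fell by 3.41 on the log2 scale (SE 1.08, adjusted p = 0.0425). The call was lost when any library other than WT 1 was left out: without WT 2 the value was -2.09 (adjusted p = 0.146), without WT 3 the adjusted p was 0.0749, and without sgNAT10 1, 2 or 3 it was 0.133, 0.104 or 0.103. Without MCA205 WT 1, the lowest WT library for Cldn4, the value was -3.95 (adjusted p = 0.00411), which restates that low level. With MCA205 WT 1 and sgNAT10 2 both left out it was -3.98 (adjusted p = 0.0263), by a fit over all groups and not within MCA205 cells alone. Epcam differed by -0.83 (SE 1.63, adjusted p = 0.737) and Krt8 by -0.95 (SE 1.36, adjusted p = 0.639). In that fit over all groups, without WT 1 and sgNAT10 2, Epcam and Krt8 differed by -0.78 (adjusted p = 0.738) and -0.92 (adjusted p = 0.653). The member median with all libraries was -0.94, beside an all-gene median of -0.03. Trp63 did not pass the filter here and had 0 counts in sgNAT10 cells against 136 in WT cells, of which 130 came from WT 2, at least 49.1-fold lower with a floor of 3 counts over the group. Cxadr was at 1.44, 0.824 and 1.73 FPKM in sgNAT10 cells, against 10.9, 10.6 and 10.5 FPKM in WT cells, and fell by 3.31 (SE 0.249, adjusted p = 9.23e-05), a gene outside the member list whose libraries lay close together within each genotype. Lung and foregut transcription factors, 10 tested, gave 1 higher and 6 lower with sgNAT10, beside 21.2% and 19.4% of all genes.

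In tumours, 0 of 8 members were called, beside 17.4% of genes (7.65% higher and 9.72% lower), and 0 had an unadjusted p under 0.05, while DESeq2 called Krt7 (log2 -1.8, adjusted p = 0.0468). Krt7 differed by -1.81 (SE 0.787, adjusted p = 0.151), Epcam by -1.44 (SE 1.17, adjusted p = 0.414), Krt19 by -1.49 (SE 1.07, adjusted p = 0.359) and Krt8 by -1.26 (SE 1.03, adjusted p = 0.421). These values depended on tumour WT 1. Without it 5 members were lower in sgNAT10 tumours: Krt19 at -2.06 (adjusted p = 0.00292), Krt8 at -1.82 (adjusted p = 0.00356), Epcam at -2.02 (adjusted p = 0.00541), Krt18 at -1.16 (adjusted p = 0.0246) and Krt7 at -2.28 (adjusted p = 0.0382). Tumour WT 1 was named above for its low member levels, so these 5 calls restate those levels and support nothing further. The share of all genes called without it is not given here. In tumour WT 1 the intestinal and liver marker sums were 2.87 and 1.4 FPKM, and their part in these values was not tested. The member median with all libraries was -1.07, beside an all-gene median of 0.02. Cdh1 differed by 0.14 with that library (SE 0.412, adjusted p = 0.835) and by -0.13 without it (adjusted p = 0.842). Trp63 differed by 2.47 (SE 1.54, adjusted p = 0.294), and by -0.11 without tumours WT 1 and sgNAT10 3 (adjusted p = 0.951). Of 10 other keratins, 1 was lower and 0 higher, and the median log2 difference was 3.31. By edgeR 6 of them had an unadjusted p under 0.05, beside 6667 of 19244 genes. Their summed level was 45, 5.87 and 403 FPKM in sgNAT10 tumours, against 22, 37.2 and 23.1 FPKM in WT tumours, so sgNAT10 3 stood apart. Krt14 differed by 3.69 (SE 1.55, adjusted p = 0.138), Krt6a by 4.74 (SE 1.87, adjusted p = 0.12) and Krt16 by 5.5 (SE 1.67, adjusted p = 0.0606), all keratins of stratified epithelium and none of them called. The keratin called lower, Krt80, a keratin of differentiating epithelium, was at 3.96, 3.36 and 6.91 FPKM in sgNAT10 tumours, against 20, 21.1 and 11.6 FPKM in WT tumours, and fell by 2.03 (SE 0.371, adjusted p = 0.0146). Of 18 junction genes tested, 2 were lower and 0 higher, beside 9.72% of all genes lower: Pard6b and Cgn fell by 1.07 (SE 0.246, adjusted p = 0.0283) and 1.87 (SE 0.414, adjusted p = 0.0249), and Gata6, an endoderm factor and 1 of 3 lung and foregut factors of 11 that were lower, fell by 5.28 (SE 0.412, adjusted p = 0.00202).

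Whether the effect of sgNAT10 differed between settings was tested on the difference itself. Between TC1 and MCA205 cells, 0 of 8 members were called, beside 28.4% of genes (13.2% higher and 15.2% lower). By edgeR 8375 of 21876 genes had an unadjusted p under 0.05, and among the members 1 did. It was Cldn4, whose effect in TC1 cells was above that in MCA205 cells by 3.56 (SE 1.33, adjusted p = 0.0578), and DESeq2 called it (adjusted p = 0.0187). Without MCA205 WT 1, the lowest WT MCA205 library for Cldn4, the Cldn4 difference was 4.11 (adjusted p = 0.0142), which restates that low level. Between tumours and TC1 cells, 0 of 8 were called, beside 29.6% of genes (14.5% higher and 15% lower). By edgeR 8496 of 21876 genes had an unadjusted p under 0.05, and among the members 1 did. It was Trp63 (adjusted p = 0.0517), with a mean of 0.482 FPKM in sgNAT10 tumours against 0.0753 FPKM in WT tumours. In TC1 cells its mean was 0 with sgNAT10 against 0.0712 FPKM in WT. DESeq2 called it (adjusted p = 0.00332). Over the sgNAT10 TC1 libraries Trp63 had 0 counts, and 373 of its 447 counts in sgNAT10 tumours came from 1 library. It passed the filter only through groups in which it was present, so both results describe these counts and support nothing further.

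The members did not vary alone. The gene most like Epcam over the 18 libraries was Krt8 (Pearson r of log2(FPKM + 1) = 0.991), followed by Muc13, a membrane mucin of the intestine (0.985), and Cldn7, a claudin (0.977). Krt8 was most like Muc13 (0.992), Epcam and Lgals4 (0.989), a lectin of intestinal epithelium, and Krt19 was most like Krt8 (0.983), Lgals4 (0.978) and Muc13 (0.976). Krt18 was most like Spint2, an inhibitor of serine proteases (0.956), and Cdh1 most like Serpinb1a (0.968). Cldn4 was most like Mmp7 (0.917), followed by the member Krt18 (0.863). These values describe 18 libraries that share lines, tables and depth, and the 3 low libraries weigh on each of them.

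Intestinal markers were low in the same 3 libraries as the members. The summed level of 16 intestinal epithelium markers was 37.6, 48.9 and 30.9 FPKM in sgNAT10 tumours, against 2.87, 53.1 and 56.1 FPKM in WT tumours. In TC1 cells it was 507, 358 and 285 FPKM with sgNAT10, against 508, 695 and 224 FPKM in WT, and in MCA205 cells it was 162, 2.05 and 187 FPKM with sgNAT10, against 8.3, 442 and 204 FPKM in WT. The lowest and the highest library of a group by this sum were also the lowest and highest by Cdh1 in 5 of 6 groups, by Epcam, Krt8 and Krt18 in 4, by Krt19 in 3 and by Cldn4 and Krt7 in 2. The ratio of the intestinal sum to Epcam was 23.3 to 36.7 in the 6 TC1 libraries and 26.1 to 29 in the 4 MCA205 libraries with Epcam of at least 1 FPKM, while it was 6.73 to 38.1 in 5 tumour libraries. The ratio of Krt8 to Epcam was 2.51 to 2.82 in TC1 cells, 2.57 to 2.99 in MCA205 cells and 1.69 to 4.18 in tumours.

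Reg3b, an antimicrobial lectin of the gut, was at 99.3, 0.0731 and 115 FPKM in sgNAT10 MCA205 cells, against 2.42, 211 and 125 FPKM in WT MCA205 cells. Fabp2, the intestinal fatty acid binding protein, was at 88.1, 59.1 and 50.1 FPKM in sgNAT10 TC1 cells, against 70.4, 101 and 38.6 FPKM in WT TC1 cells. Alb, the liver's serum albumin, was at 479, 440 and 383 FPKM in sgNAT10 TC1 cells, against 401, 391 and 277 FPKM in WT TC1 cells, and at 0 to 2.73 FPKM in MCA205 cells. Counts of these gut and liver genes thus stood in libraries labelled as cultured cells, and were low in the same MCA205 libraries in which Epcam was low. Whether this RNA came from the cultured cells or reached the libraries from elsewhere was not tested, and the same holds for Epcam, Krt8 and Krt19, which varied with it. Of the 16 intestinal markers, 0 differed between sgNAT10 and WT TC1 cells, with 1 at an unadjusted p under 0.05 by edgeR. The 12 liver markers gave 0 calls in TC1 cells and 0 at an unadjusted p under 0.05. Of all 18823 genes tested there, 7126 were called and 8707 had an unadjusted p under 0.05. The part of gut, liver or other tissue RNA in the member levels was not tested.

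**Figure D4:**
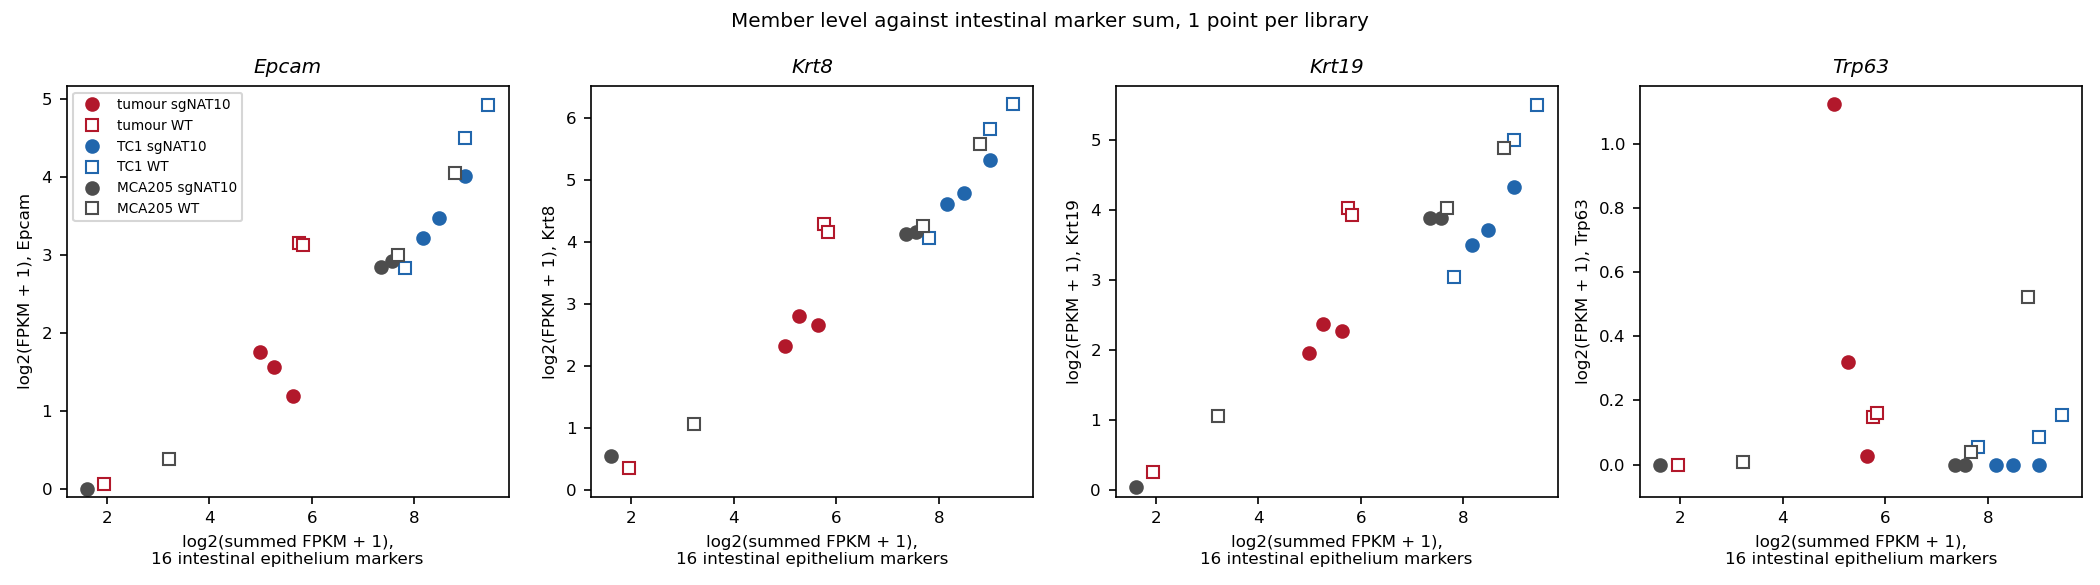
Level of Epcam, Krt8, Krt19 and Trp63 in each library (vertical axis, log2(FPKM + 1)) against the summed level of 16 intestinal epithelium markers (horizontal axis, log2(summed FPKM + 1)). The first 3 genes climb with the sum from the low libraries tumour WT 1, MCA205 sgNAT10 2 and MCA205 WT 1 up to TC1 WT 2, while Trp63 is highest in tumour sgNAT10 3, away from that line.

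Kidney and liver markers were summed in the same way. The 8 kidney tubule markers summed to 20.2 to 196 FPKM in sgNAT10 TC1 cells and 11 to 163 FPKM in WT TC1 cells, against at most 0.446 FPKM in any tumour or MCA205 library. Liver markers, 12 genes, summed to 482, 533 and 516 FPKM in sgNAT10 tumours, against 1.4, 48.4 and 198 FPKM in WT tumours. Epcam beside these sums was at 1.95, 1.28 and 2.37 FPKM in sgNAT10 tumours and at 0.044, 7.89 and 7.77 FPKM in WT tumours, so WT 1 was the lowest tumour library in both. Alveolar type 2 genes gave 2 higher and 0 lower of 7 tested with sgNAT10 in TC1 cells, beside 15.9% of all genes higher. They were Abca3, a lipid transporter of lamellar bodies (log2 0.18, SE 0.0534, adjusted p = 0.0391), and Lpcat1 (log2 0.6, SE 0.123, adjusted p = 0.00839). Lpcat1, a surfactant lipid enzyme that other tissues also express, was at 17.4, 15 and 14.5 FPKM in sgNAT10 TC1 cells, against 8.83, 10.2 and 11.7 FPKM in WT TC1 cells. Lyz1, a lysozyme of Paneth and alveolar type 2 cells, was at 69.8, 45.6 and 39.4 FPKM in sgNAT10 TC1 cells, against 41.8, 59.6 and 30.4 FPKM in WT TC1 cells (log2 0.19, adjusted p = 0.665, not called), and at 16.3 FPKM in MCA205 WT 2 but at most 0.134 FPKM in the other MCA205 libraries.

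**Figure D5:**
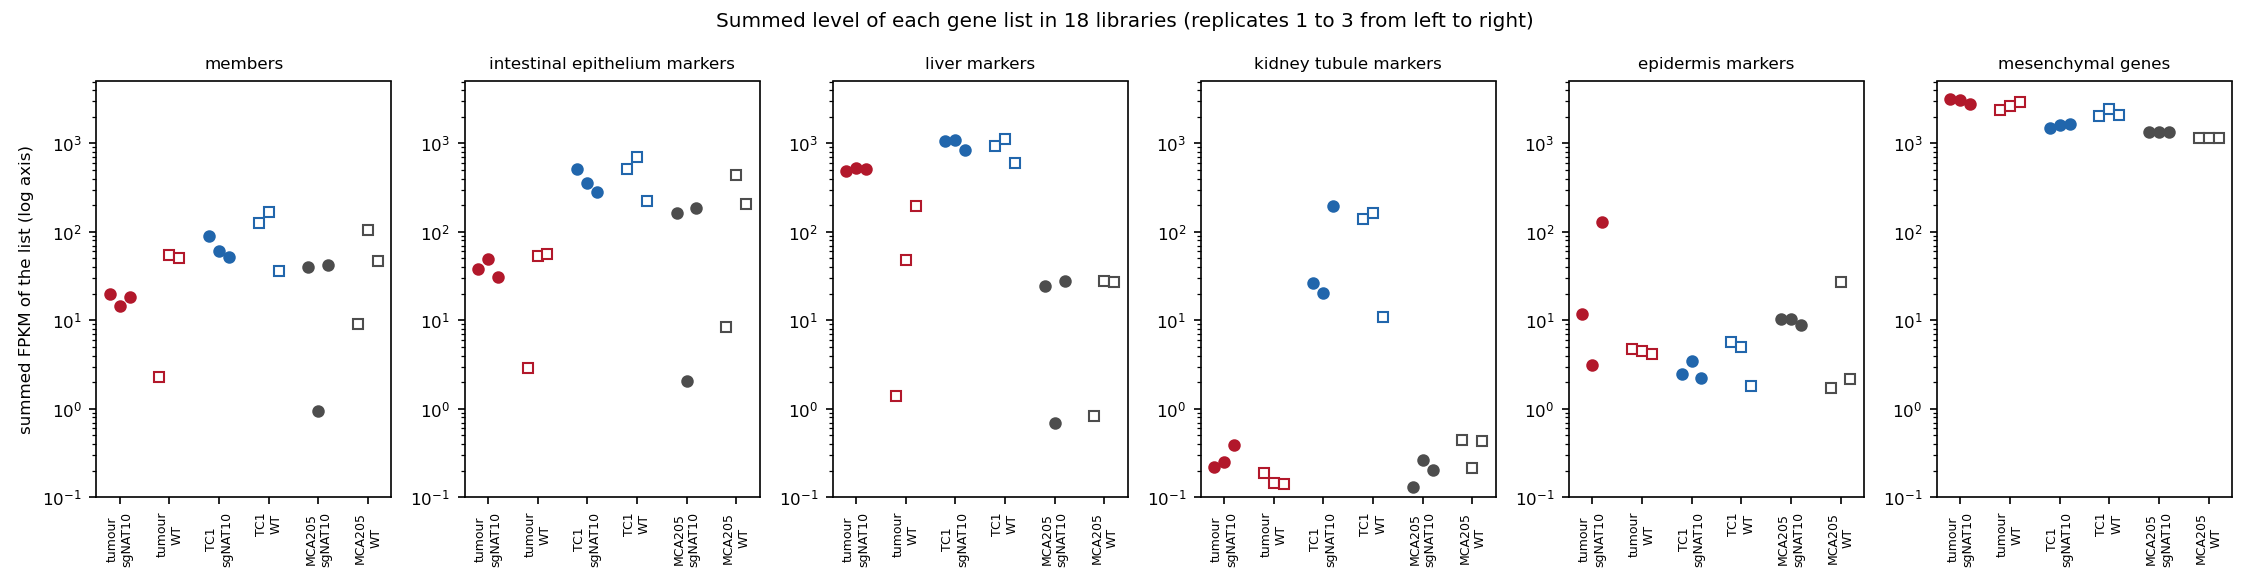
Summed FPKM (logarithmic axis) of the members and of 5 other gene lists in each library (filled circles, sgNAT10; open squares, WT). The intestinal and liver sums of MCA205 cells drop in the same 2 libraries as the member sum, to 0.938 and 9.12 FPKM for the members. Sftpc makes up 5.68 of the 9.12 FPKM, in WT 1. Mesenchymal sums stay between 1135 and 3143 FPKM.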

How the data were processed

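Each of 3 deposited tables, for MCA205 cells, TC1 cells and tumours, gives transcripts with FPKM and estimated counts, per the file headers. Both were made by the authors: FPKM is relative to transcript length and library size, and each deposited estimated count is the rounded-up product of FPKM, transcript length and a constant of its library. Named tools, in the submitters' processing notes, are Bowtie2, featureCounts, FastQC and Trim Galore, with mm10 as build. The program that made the values, and its strand setting, are not given in the sources used here. Columns headed KO were taken as the samples titled sgNAT10.

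Transcripts were summed per gene. Positions are those of mm10. The 3 genotype comparisons were fitted within a table and the 4 others and the 2 interactions over all 18 libraries, with edgeR 4.0.16 (TMM, default filter, quasi-likelihood test) in R 4.3.3, with a threshold of 0.05 on Benjamini-Hochberg adjusted p. The step was tested on simulated counts. Alternatives used RLE factors, library size, no filter, 1 CPM, DESeq2 1.42.0, limma 3.58.1 on log2(FPKM + 1) or log2(FPKM + 0.1), a replicate block, other spreads and libraries left out. Libraries of a group differed by more than sampling noise. Named genes were the members, the most expressed or most clearly called list genes, and those most like a member. Of these, a selection is printed. Members, lists and tests were chosen with earlier results of these data known.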

Additional observations from a re-analysis of the deposited data

How the results depend on the processing

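Counts of members called depended on the setting. In MCA205 cells the 1 call became 0 with no filter, with 1 CPM in 3 libraries, with each of 3 limma settings and with the replicate block. With only WT 1 and sgNAT10 2 kept, in a fit over all groups, Cldn4 reversed to 0.25. In TC1 cells the 1 call became 0 with 1 CPM, limma and the spread over 18 libraries. In tumours the 0 became 1 with DESeq2 and 5 without WT 1 and sgNAT10 3 (added after the data were seen). Tumour WT 1 was named for its low member levels, so this count of 5 restates those levels and supports nothing further. WT TC1 against WT MCA205 cells gave 2 and sgNAT10 cells 6 with only MCA205 WT 1 and sgNAT10 2 kept, libraries named for their low member levels, so that these counts restate those levels and support nothing. The sgNAT10 cells gave 2 with limma on log2(FPKM + 1). Tumours with sgNAT10 against cells gave 0 with limma and 4 over the groups compared. The TC1 and MCA205 interaction gave 1 with DESeq2, the groups compared, or MCA205 WT 1 and sgNAT10 2 left out. The tumour interaction gave 1 with 1 CPM, DESeq2, the replicate block or the groups compared. The cause was not tested.

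All genes called in MCA205 cells were 7355, against 4733 with the spread over 18 libraries, 865 with only those 2 libraries kept and 2904 without them. In tumours 3343 genes were called, against 2152 with no filter, 5090 with DESeq2, 1987 with unfiltered limma, 836 with the replicate block, 5512 with the spread over 18 libraries and 1797 without WT 1 and sgNAT10 3. The TC1 interaction gave 2771 genes with only the 2 MCA205 libraries kept, against 6216. Same-numbered libraries correlated between -0.576 and 0.361 in their deviations over 7 comparisons, in none of which every pair was above 0.1, so the replicate block rests on numbers alone, and it moved no other count by over 1.5 times.

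With 1 library left out, members called ranged 0 to 1 in MCA205 cells (6298 to 7109 genes), 1 to 5 in TC1 cells (5318 to 7904), 0 to 5 in tumours (638 to 4606), 0 to 0 between WT lines (6447 to 7453), 1 to 1 between sgNAT10 lines (8827 to 9575), 0 to 0 for WT tumours against cells (9368 to 10036), 1 to 1 for sgNAT10 tumours against cells (10910 to 11253), and 0 to 1 in the interactions of TC1 (5394 to 6137) and of tumours (5621 to 6814). Where a group kept 1 library, that library was assumed to vary like the other groups. Genes of few counts, Trp63, Nkx2-1 and Sftpc, are limited by depth.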
